A study of Mus musculus with 2 samples.

Results

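Simple and superficial cell keratins are filament proteins of single-layered epithelia and of the luminal cells of layered ones. Krt7, Krt8, Krt18, Krt19, Krt20 and Krt23 were chosen by gene name from the array's annotation, and all 6 were measured, by 7 probes, among 29923 genes and 39429 probes. The study compared ureters of mouse embryos that lack Pparg function in the urothelium with ureters of control littermates at E18.5, shortly before birth. RNA of pooled ureters was hybridised to 2 arrays read in 2 colours, and on each a Pparg-cKO pool met a control pool directly. Pparg-cKO embryos carried Pax2-cre/+ and Pparg(fl/fl), and control embryos carried Pparg(fl/?), with 1 allele not given and no cre. All pools were of the outbred NMRI strain. One array (replicate 1) compared pools of female and the other (replicate 2) pools of male embryos, and the dyes changed places between them. Hence sex, dye orientation and array cannot be told apart. Pax2-cre acts in the nephric duct, the ureteric epithelium and the collecting ducts, and the floxed allele loses exons 2 and 3. Each pool also held the mesenchyme around the epithelium.

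Keratins form the intermediate filaments of epithelial cells. A filament is built from pairs of a type I and a type II chain, so each cell makes members of both types. Krt8 and Krt7 are type II chains, and Krt18, Krt19, Krt20 and Krt23 are type I chains. In the urothelium, basal (B) cells are known for Krt5 and, in part, Krt14, whereas Krt20 is the keratin of mature superficial (S) cells, which also carry the uroplakin plaques. Krt8, Krt18, Krt7 and Krt19 are found more widely in the urothelium.

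Each of the 7 probes is a 60-base oligonucleotide printed on 4 spots. The probes lie at chr11:99289776-99289835 (Krt20), chr11:99339393-99339452 (Krt23) and chr11:100002392-100002451 (Krt19), in the type I keratin cluster of mouse build mm9. Krt7 (chr15:101253718-101253777), Krt8 (chr15:101827138-101827197 and chr15:101828827-101828886) and Krt18 (chr15:101862341-101862400) lie in the type II cluster, where Krt18 is the type I exception next to Krt8. The transcripts named for 6 of the 7 probes are RefSeq transcripts of the same genes. The brighter Krt8 probe is named for another cDNA. Exon and UTR annotation of mm9 was not used here. Bases 1 to 30 of the probes of Krt20, Krt19 and Krt18 and of the second Krt8 probe are shown because the changes described next rest on them. For the brighter Krt8 probe bases 31 to 60 are shown, with the hexamer AATAAA, the letters of a polyadenylation signal, in capitals.
Krt20: ataagaacacagcacaaggtgattgacatg
Krt19: acggaggcccgttatggagtccagctgtca
Krt18: ggatggcagagtggtgtccgagactaatga
Krt8, second probe: agatctccgagatgaaccgcaacatcaacc
Krt8, brighter probe: aaAATAAAgcctcagctggctctgtcaact
The 2 Krt8 probes lie at different positions of the gene and differed in base composition, with 33 G or C bases of 60 in the second and 24 in the brighter probe.

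The labels were examined on a few genes. Xist read 4930 and 2890 signal units in the female pools and at most 1.66 in the male pools, whereas Ddx3y read 1710 and 1860 in the male and at most 1.78 in the female pools. The median processed spot signal, which is already normalised between dyes, was between 59.0 and 65.3 in all 4 channels. The share of spots well above background differed by dye. It was 76.8% and 77.3% in green and 66.2% and 67.6% in red on replicates 1 and 2. The only Pparg probe lies at chr6:115440213-115440272. Where this probe falls among the exons was not examined here, so it does not check the deletion. Pparg gave log2 ratios of 0.98 (female) and 0.96 (male). These signs, like all that follow, are those of the deposited table, titled Pparg-cKO against control, and higher and lower are therefore likely directions. By the dye labels the ratios run the other way on both arrays. If those labels are right as written, each higher becomes lower and each lower higher, while sizes, counts and p-values stay. The deposited direction was kept because it is also that of the study's own account of its tissue sections. Krt20 is among the genes of that account, so its sign is not independent of this choice.

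Krt20 fell by 3.09 on the log2 scale, or 8.51-fold, in Pparg-cKO ureters, and it had the lowest mean log2 ratio of all 22499 genes tested. In the female pools its processed signal was 168 ± 13.2 (SD over 4 spots) in Pparg-cKO against 1557 ± 130 in control. In the male pools it was 144 ± 11.5 against 1407 ± 116. No Pparg-cKO spot reached the control spots: the highest was 179 and the lowest control spot 1261. The log2 ratios of the arrays were -3.14 and -3.03, with an SD of 0.08 (n = 2 arrays). Limma gave Krt20 an adjusted p of 0.00620. The 95% interval of the fit was -3.36 to -2.82. In pooled tissue, fewer S cells and less Krt20 RNA in each S cell cannot be told apart. Both Pparg-cKO pools were still well above background for Krt20. Krt20 also had the lowest mean with 6 of 7 alternative ways of processing, and ranked 4 from the bottom with scanner-processed signals.

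Krt19 and Krt23 were about 2-fold higher in Pparg-cKO ureters on average. Krt19, an acidic chain of simple and layered epithelia, read 14454 ± 367 (SD over 3 spots) in the female Pparg-cKO pool and 8997 ± 105 in the control pool. The male pools read 19671 ± 132 and 8059 ± 147. Both Pparg-cKO pools exceeded both control pools, and the difference was larger in the male pair. The log2 ratios were 0.71 and 1.29, with a mean of 1.00 ± 0.41 (SD, n = 2).

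Krt23, a type I keratin of several inner epithelia, read 1368 ± 126 (SD over 4 spots) against 756 ± 36.8 in the female pools, with Pparg-cKO first. In the male pools it read 1730 ± 75.6 against 752 ± 36.4. Here too both Pparg-cKO pools stood above both control pools. The log2 ratios were 0.79 and 1.20, with a mean of 0.99 ± 0.30 (SD, n = 2). Both genes passed the fold rule, which asks for a change of 1.5-fold or more on both arrays in 1 direction, with the brighter pool of each array reading 100 or more processed signal units. Neither passed limma, with adjusted p of 0.121 for Krt19 and 0.0760 for Krt23. The 95% intervals of the log2 ratios were 0.58 to 1.43 and 0.64 to 1.35. Unlike the adjusted p, these intervals are not adjusted for the number of genes tested, as holds for all 95% intervals given here.

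Krt18 and Krt8, which pair in the filaments of simple epithelia, did not move together. Krt18 read 9932 ± 150 (SD over 3 spots) in the female Pparg-cKO pool and 20715 ± 678 in its control pool. In the male pools it read 11221 ± 390 and 16564 ± 421. Its signal was thus lower in both Pparg-cKO pools than in either control pool. Log2 ratios of -1.04 and -0.54 gave a mean of -0.79 ± 0.35 (SD, n = 2), 1.73-fold, with a 95% interval of -1.18 to -0.40. Krt18 stood just outside the fold rule, since it was 1.45-fold lower on the male array, and it did not pass limma (adjusted p of 0.173).

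Krt8 went in opposite directions on the arrays. The brighter probe read 10355 ± 146 (SD over 4 spots) in the female Pparg-cKO pool against 12330 ± 520 in control, and 15102 ± 493 against 10774 ± 176 in the male pools. The second probe showed the same pattern, with 5651 ± 259 (SD over 3 spots) against 6179 ± 320 in the female pools. It read 6733 ± 320 against 5706 ± 291 in the male pools. Across the arrays the pools of the 2 genotypes therefore overlapped for Krt8 on both probes. Within each pair the spots of the genotypes stood apart, in opposite directions. The log2 ratios were -0.28 and 0.52 on the brighter probe and -0.25 and 0.29 on the second. Their means were 0.12 ± 0.57 and 0.02 ± 0.38 (SD, n = 2). The adjusted p of the gene was 0.957 in limma, and its 95% interval of -0.41 to 0.65 spanned both signs. Krt18 minus Krt8 was -0.76 in the female and -1.06 in the male pair, a mean difference in log2 ratio of -0.91 ± 0.21 (SD, n = 2). The gap between the partners was thus present within each array. It was a comparison chosen with these values known and was not tested.

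Krt7, the type II chain of glandular and urothelial cells, read 2098 ± 35.1 (SD over 4 spots) against 2609 ± 58.2 in the female pools, with Pparg-cKO first. The male pools read 2387 ± 123 and 2315 ± 51.4. Spot values of the 2 genotypes were apart in the female pair and overlapped in the male pair. The log2 ratios were -0.38 and 0.05, with a mean of -0.16 ± 0.30 (SD, n = 2). Krt7 passed neither the fold rule nor limma (adjusted p of 0.854), and its 95% interval ran from -0.52 to 0.20.

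**Figure D1:**
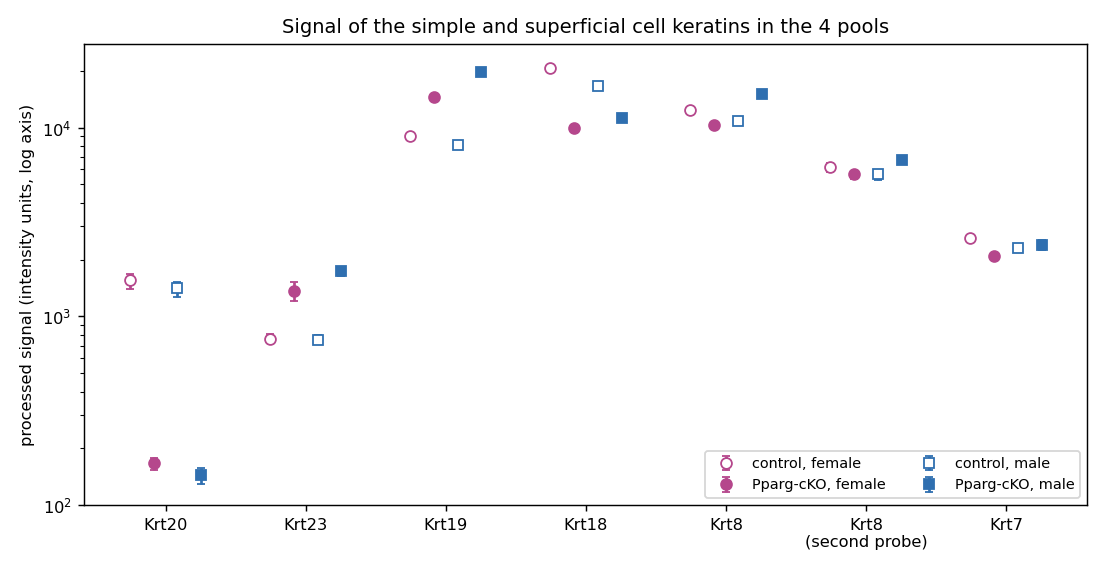
Processed signal of each keratin probe (log axis, intensity units) in the female (circles) and male (squares) pools, with control open and Pparg-cKO filled; points are means over kept spots and bars run from the lowest to the highest spot. Krt20 sits at 168 and 144 in the Pparg-cKO pools against 1557 and 1407 in the control pools. Both Krt8 probes are lower in Pparg-cKO in the female pair and higher in the male pair. Their spots stand apart between genotypes within each pair. For Krt7 the spots stand apart in the female pair and overlap in the male pair. Signals of different probes cannot be set against each other.

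By count, 3 of the 6 keratins passed the fold rule, 2 of them higher (Krt19 and Krt23) and 1 lower (Krt20). Of 14015 genes bright enough for that rule, 1.84% passed it, 0.792% higher and 1.05% lower. Limma called 1 of the 6, Krt20. Of 22499 genes tested it called 0.751%, of which 0.382% in all were higher and 0.369% lower. The median of the 6 mean log2 ratios was -0.02, against 0.01 for all genes tested, because members lay on both sides of 0. Krt20 and Krt19 lay at opposite ends of the distribution: Krt19 was above 99.6% of genes tested, as was Krt23, and Krt18 was above 0.676% of them.

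**Figure D2:**
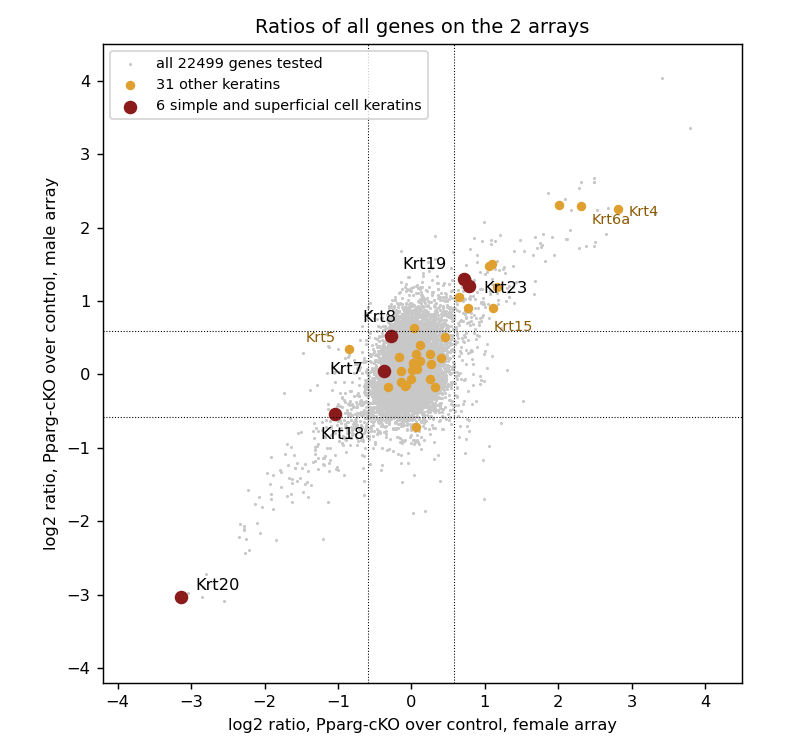
Log2 ratio of Pparg-cKO over control on the female (x) and male (y) array for all 22499 genes tested (grey), 31 other keratins (orange) and the 6 simple and superficial cell keratins (dark red); dotted lines mark 1.5-fold. Krt20 lies alone at -3.14 and -3.03 among keratins, Krt19 and Krt23 lie past 1.5-fold on both axes, and Krt7, Krt8 and Krt5 have opposite signs on the arrays.

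All 6 keratins had a higher log2 ratio on the male than on the female array, as had 25 of the 37 keratins and 55.2% of the genes tested. With scanner-processed signals and with the deposited table, Krt20 was the exception, at -0.08 and -0.07. In the fit reported here the difference was 0.11 for Krt20, 0.42 for Krt23, 0.43 for Krt7, 0.50 for Krt18, 0.58 for Krt19 and 0.80 for Krt8. For Krt8 it was larger than for 97.7% of genes tested, whereas for Krt20 it was larger than for 34.7%. With median centring in place of loess, Krt8 and Krt20 no longer differed in this way, at 0.44 and 0.47. The difference was then 0.07 for Krt18, 0.20 for Krt19, 0.58 for Krt7 and 0.69 for Krt23. The 18 pan-epithelial markers, genes of epithelial junctions and identity such as Cdh1, Spint2, Rab25 and Lsr, had medians of 0.05 (female) and 0.55 (male). Their median thus moved between the arrays by 0.49, and 16 of the 18 were higher on the male array. With that median taken off on each array, Krt18 was at -1.09 on both, and Krt7 was at -0.43 and -0.50. Krt20 was then at -3.20 and -3.58, Krt19 at 0.66 and 0.74 and Krt23 at 0.73 and 0.66, each closer between the arrays than before except Krt20. Krt8 was at -0.33 and -0.03 and no longer changed sign. This setting was added after the data were seen, and the part of the epithelial share in these ratios was not tested.

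The other keratins were mostly higher. The array carries 52 keratin genes, of which 37 were well above background and tested. Of these 37, 8 passed the fold rule as higher and 1, Krt20, as lower, and limma called 7 as higher and again Krt20 as lower. Among all genes bright enough, 0.792% passed the fold rule as higher and 1.05% as lower. Limma called 0.382% of all genes tested as higher and 0.369% as lower. Among the 31 tested keratins outside the 6, 20 were higher and 5 lower on both arrays, that is 64.5% and 16.1%. Of all genes tested, 26.6% were higher and 26.2% lower on both. For the 18 pan-epithelial markers these shares were similar to those of the keratins, at 61.1% and 16.7%, with a median log2 ratio of 0.40. The median was 0.18 for the 31 keratins. It was 0.23 for the 20 type I and 0.09 for the 17 type II keratins tested. Without the filter on dim probes these medians were smaller, at 0.07 for the keratins outside the 6, 0.08 for type I and 0.01 for type II, the last no higher than the median of all genes.

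The keratins with the largest rises past both tests were Krt4 and Krt6a. Krt4, a keratin of mucosal squamous epithelia, was 5.77-fold higher, with log2 ratios of 2.81 and 2.25 and an adjusted p of 0.00929 in limma. Krt6a, a keratin of wound repair, was 4.95-fold higher (2.31 and 2.30, adjusted p of 0.00620). Its close paralogue Krt6b was 4.47-fold higher on its brighter probe, and their readings may share RNA. The other Krt6b probe read 0.24 and 0.50. The mean log2 ratio of Krt6b was between 1.27, as the median of its probes, and 3.27, with the deposited table. Krt75 (2.47-fold) and Krt78 (2.40-fold) were also called by limma. All of these were higher with each of the 7 alternatives, and limma called Krt4, Krt6a and Krt6b in 6 of them, Krt75 in 5 and Krt78 in 3.

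Of the B cell keratins, Krt15 was 2.26-fold and Krt14 2.01-fold higher, with adjusted p of 0.0220 and 0.0427 in limma, which called Krt15 in 5 and Krt14 in 4 of the 7 alternatives. Krt5, the type II partner of Krt14, was at -0.86 in the female and 0.35 in the male pair. Krt42 was 1.81-fold higher and passed the fold rule only (adjusted p of 0.111). Its second probe was not well above background.

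Krt20 lay in the cluster between keratins that did not share its change. The next tested gene on one side was Krt10, 43.2 kb away, with a mean log2 ratio of 0.07. On the other side was Krt23, 49.6 kb away, at 0.99. Krt20 minus Krt23 was -3.93 in the female and -4.24 in the male pair. Krt19 had Krt15 (1.18) as its next tested gene on one side, 9.06 kb away, and Krt9 (-0.03) on the other, 45.7 kb away. Krt8 and Krt18, whose probes lie 35.2 kb apart, differed as described. Krt12, which lies between Krt10 and Krt20, was not well above background and was not tested.

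**Figure D3:**
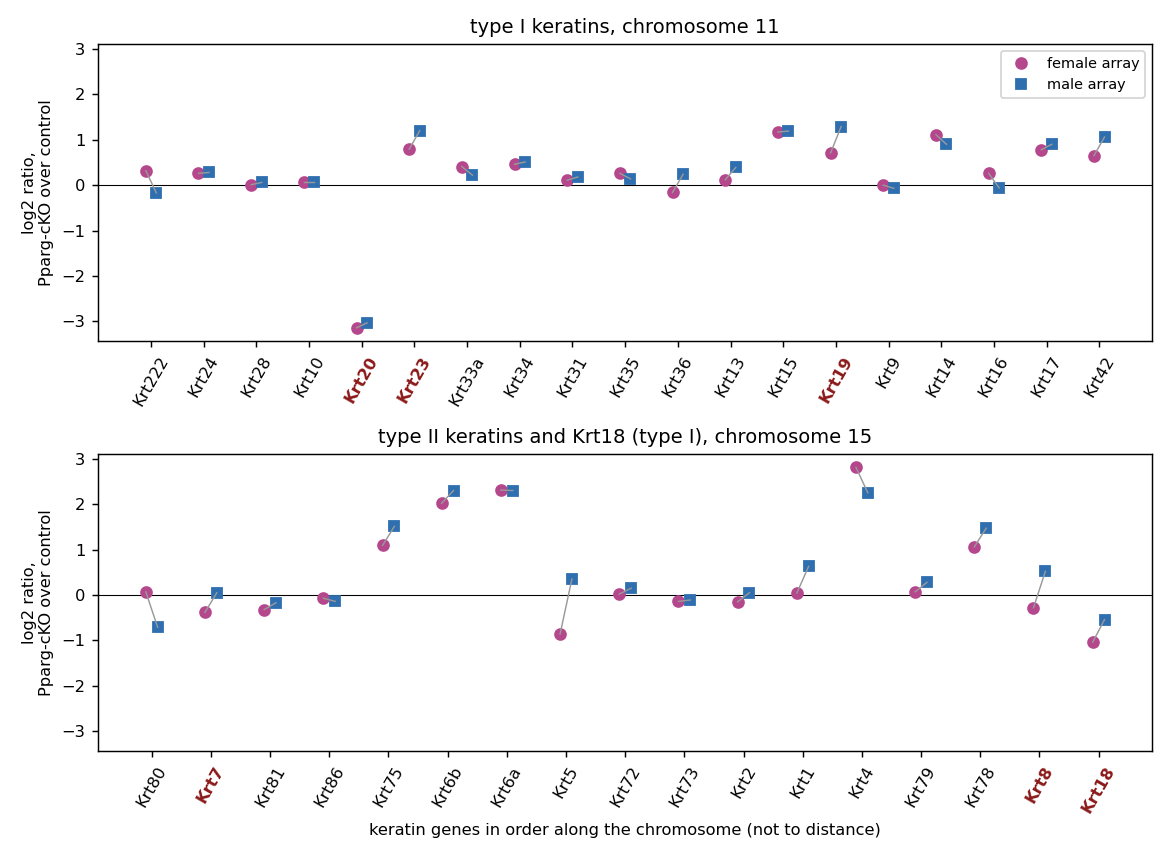
Log2 ratio of Pparg-cKO over control on the female (circles) and male (squares) array for the tested keratins in their order along chromosomes 11 (top) and 15 (bottom), with equal spacing; the names of the 6 simple and superficial cell keratins are in red. Krt20 at -3.14 and -3.03 stands between Krt10 near 0 and Krt23 at 0.79 and 1.20, and Krt18 lies below its neighbour Krt8 on both arrays.

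Genes that anchor or bind keratin filaments were higher more often than lower. Of 20 tested linkers and binding partners, 12 were higher and 1 lower on both arrays, that is 60% and 5%. Among all genes tested the shares were 26.6% and 26.2%, and among the pan-epithelial markers 61.1% and 16.7%. The median log2 ratio of the linkers was 0.31. It was 0.07 in the female and 0.55 in the male pair, close to the values of the pan-epithelial markers. The fold rule passed 2 of the linkers, both higher, and limma called 1, also higher. Over all genes the shares called higher were 0.792% by the fold rule and 0.382% by limma. Dsc2, a desmosomal cadherin, was 2.15-fold higher (1.07 and 1.14, adjusted p of 0.0263), and Pkp1, a desmosomal plaque protein of layered epithelia, was 2.74-fold higher (1.08 and 1.83, adjusted p of 0.0685). Of the other intermediate filament genes all 15 were tested, and 0 passed the fold rule or were called by limma. Their median log2 ratio was -0.04 and their range -0.38 to 0.55.

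The markers of the cell types in the pools moved as follows. All 8 superficial cell markers were lower on both arrays, with a median of -0.95, and 5 passed the fold rule, 2 of them also called by limma. Over all genes, 26.2% were lower on both arrays. As lower, 1.05% passed the fold rule and 0.369% were called by limma. Several of the superficial cell markers were put on the list by the study from these arrays, so the list is not independent evidence of its direction. The brightest 4 are uroplakins, the plaque proteins of S cells, with mean log2 ratios of -0.24 (Upk3a), -0.51 (Upk2), -1.02 (Upk1b) and -1.51 (Upk1a). Limma called Ly6d, at 8.03-fold lower, and Upk3b, at 3.19-fold lower. The mean of Krt20 thus lay next to that of Ly6d (-3.01), and the mean of Krt18 between those of Upk2 and Upk1b. The summed processed signal of the 8 was 48547 and 53049 in the Pparg-cKO pools against 90746 and 77869 in the control pools. Of the 7 basal cell markers, 4 were higher and 1 lower on both arrays. The fold rule and limma each passed 2, both higher and both keratins (Krt14 and Krt15). Over all genes the shares called higher were 0.792% by the fold rule and 0.382% by limma. The study had reported both keratins as raised on these arrays, and its sections showed them ectopically in B cells after birth. Their rise is therefore not independent evidence on basal cells. Krt5 was at -0.86 and 0.35. Trp63, a transcription factor of basal cells, was at -0.53 and -0.44 and passed neither test.

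Other cell types were examined because simple keratins are not particular to the urothelium. Of the renal collecting duct markers, 9 of 10 were tested. Their summed processed signal was 996 and 1159 in the Pparg-cKO pools and 954 and 895 in the control pools. Aqp2, which defines the collecting duct, read 21.8 to 28.1 in all pools. Of the collecting duct markers 2 passed both tests, Fxyd4 (5.21-fold higher) and Aqp3 (2.54-fold lower), and urothelium is known to express Aqp3. Over all genes, 1.84% passed the fold rule and limma called 0.751%. Most of each sum came from these 2 markers, which went opposite ways. Fxyd4 read 536 and 596 in the Pparg-cKO pools against 77.4 and 109 in control. Aqp3 read 200 and 258 against 648 and 566. The intestinal markers, another tissue with Krt20, summed to between 302 and 427, with Cdx2 not well above background. Lgals4 gave most of that sum, at 230 and 354 in the Pparg-cKO and 261 and 260 in the control pools. Every other intestinal marker read 40.8 or less.

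Of the mesothelium markers 5 of 7 on the array were tested, and Bnc1 and Lrrn4 were not well above background. Msln was 5.87-fold higher, whereas Wt1 was at -0.05 and -0.14. Upk1b and Upk3b, which mesothelium also expresses, were lower. The summed signal of the list was 9166 and 11460 against 14308 and 12614. Its 2 parts with the largest changes went opposite ways. Upk1b, also a superficial cell marker, gave 5040 and 6250 against 12100 and 10400, and Msln gave 3090 and 4380 against 514 and 726. Smooth muscle markers had a median of -0.14 and fibroblast markers of 0.10, with 0 of 8 and 0 of 6 past the fold rule or called by limma. The part of any of these cell types in the keratin ratios was not tested.

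**Figure D4:**
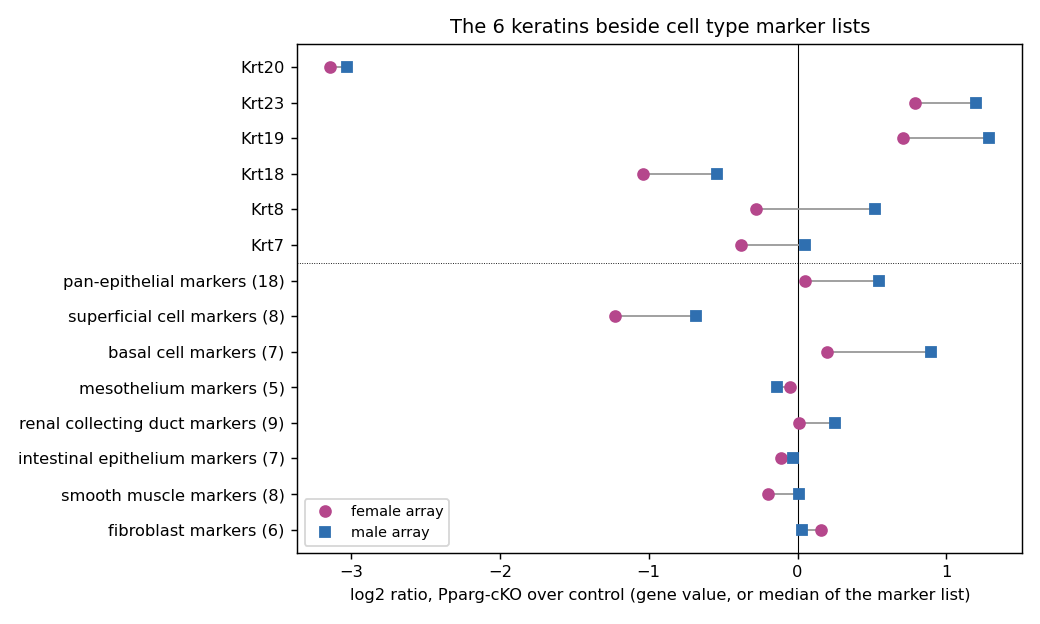
Log2 ratio of Pparg-cKO over control on the female (circles) and male (squares) array for the 6 keratins (top) and the median of each cell type marker list (bottom, number of tested markers in brackets). Krt20 lies below the superficial cell median (-1.23 and -0.68), Krt18 lies near it, and the basal cell (0.20 and 0.90) and pan-epithelial (0.05 and 0.55) medians are higher on the male array.

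The genes most like Krt20, Krt19 and Krt18 were taken by the distance between their pairs of log2 ratios, over 2 arrays. Closest to Krt20 was Ly6d, at a distance of 0.122 and with ratios of -3.04 and -2.97. Hsd17b2, an oxidoreductase of steroid metabolism, followed at 0.296, and 3830417A13Rik at 0.340. Ly6d is one of the superficial cell markers. Closest to Krt19 were Slc17a9, a vesicular nucleotide transporter (0.73 and 1.31), Vgll1, a TEAD cofactor (0.76 and 1.30), and Ptpn13, a protein tyrosine phosphatase (0.67 and 1.25). Among the genes closest to Krt18 were Mgst2 (-1.04 and -0.58) and Slc23a1, a vitamin C transporter (-0.98 and -0.50). The genes named for Krt19 and Krt18 missed the limma threshold, whereas those near Krt20 passed it with adjusted p of 0.00620. Because these genes were chosen by the same log2 ratios that limma fitted, their calls largely followed from the choice.

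Promoters of the keratins were read because Pparg acts by binding DNA, as a dimer that recognises repeats of the half-site AGGTCA. RefSeq promoters of build GRCm38.p6, from 250 bases before to 50 after the start of the gene, were given for 5 of the 6 genes, Krt19 being the exception. The half-site was searched on both strands and was present in 4 of these 5, against 16.3% of 32851 promoters. The repeat AGGTCANAGGTCA, which holds the half-site, was in 0 of the 5 and in 0.0396% of all promoters. The 30 bases around each half-site, with the half-site in capitals and on the strand of the gene, are shown to place the letters in the gene that fell most and in 3 that were not called.
Krt20, chr11:99438159-99438188: gaactctataaaAGGTCAtctccacagcag
Krt18, chr15:102028096-102028125: ctgcgacctgttAGGTCAcaggaatcccga
Krt8, chr15:102004550-102004579: ataagacagcttAGGTCAgagatcccaggc
Krt7, chr15:101412406-101412435: gcagactgcctgAGGTCAgggagttcgcgc
The half-site began 23 bases before the start in Krt20, 108 before it in Krt18 and 225 before it in Krt8, and 15 after it in Krt7. Its presence did not separate Krt20 from Krt7 and Krt8. A match is a run of letters, and binding was not measured on these arrays.

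The size of the changes depended little on how the signals were processed. Over 7 alternatives the mean log2 ratio was between -3.25 and -2.99 for Krt20, 0.94 and 1.00 for Krt19, 0.99 and 1.06 for Krt23, and -0.85 and -0.79 for Krt18. Krt20, Krt19 and Krt23 passed the fold rule in all 7. Krt20, Krt19, Krt23 and Krt18 each have a single probe. Other probe summaries and the lack of a filter on dim probes therefore could not change their ratios. With median centring in place of loess, the ratios of Krt18 were -0.89 and -0.82 and it passed the fold rule. The ratios of Krt8 were then -0.16 and 0.27 and those of Krt7 -0.42 and 0.16. The calls of Krt18, Krt19 and Krt23 in limma rested on the background offset, as given in the closing section.

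**Figure D5:**
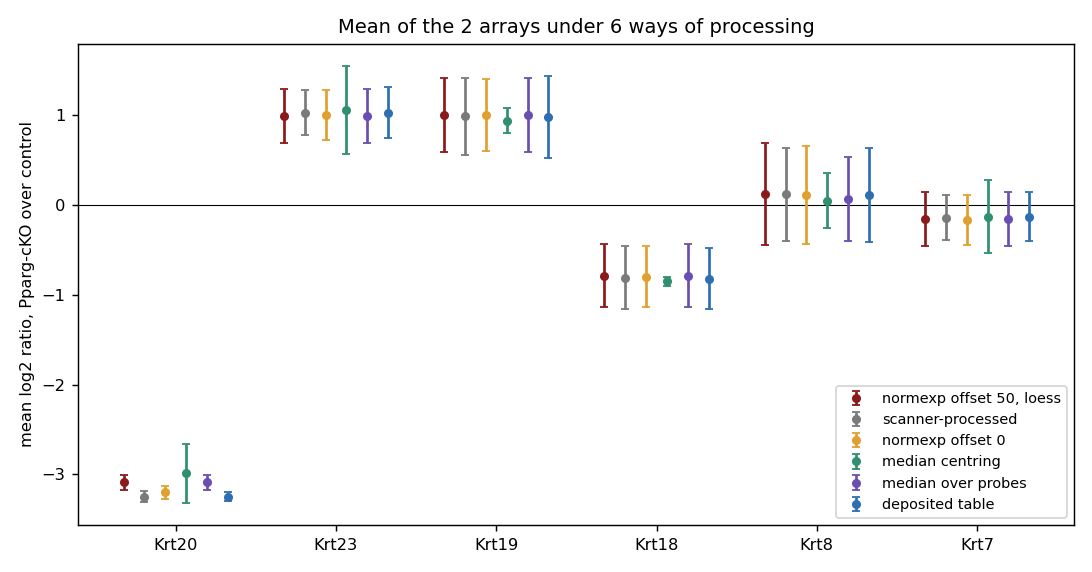
Mean log2 ratio of Pparg-cKO over control for each of the 6 keratins under 6 ways of processing; points are the mean of 2 arrays and bars are ± 1 SD. Krt20 stays between -3.25 and -2.99 and Krt18 between -0.85 and -0.79, Krt19 and Krt23 stay near 1, and the bars of Krt8 and Krt7 cross 0 under each.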

How the data were processed

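Sex-sorted ureters were pooled, and total RNA was labelled and hybridised by the authors. Per the file headers, the scanner files (Agilent Feature Extraction 10.7.3.1) held spot intensity: mean signal, median local background and a processed signal corrected and normalised between dyes. The deposited table gave signed fold changes by probe, exactly 1 in 28.3% and 28.4% of cells and with a median of 1 on each array; its dye direction and centring were not stated. Its correlation with log2 red over green was 0.918 on replicate 1 and -0.944 on replicate 2, opposite to the dye labels, and its direction was used.

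Intensity was corrected with normexp (offset 50) and loess in limma 3.58.1 (R 4.3.3). Spots of a probe were averaged without outlier spots, and the brightest probe stood for a gene. Limma tested the 22499 genes whose probe stood well above background in 1 channel or more of each array, with Benjamini-Hochberg adjustment and a threshold of 0.05. Each fit rests on 2 arrays and 1 residual degree of freedom, with a prior worth 4 more. The number of arrays limits the precision. SDs over spots are technical. The code was tested on simulated data.

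Genes named were the 6 keratins, Krt5 and Krt14, genes of the keratin, linker and filament lists past the fold rule or called by limma, up to 4 markers of each list (more where a result turned on them, chosen after their values were seen), and the 3 nearest genes of 3 keratins, of which 1 is not reported here. Members and lists were chosen with earlier results of these data known. Alternatives were other normalisations, probe summaries and filters, the deposited table and each array alone.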

Additional observations from a re-analysis of the deposited data

Results flagged for a closer look

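Krt7 and Krt8 had opposite signs in the 2 pairs of pools. Both were lower in Pparg-cKO among females. Among males Krt8 was higher, whereas Krt7 was at 0.05, with overlapping spots of the genotypes. Male minus female, the log2 ratio differed by 0.43 for Krt7, by 0.80 for the brighter and by 0.54 for the second probe of Krt8. Krt5 had the same signs, with a difference of 1.20 on its brighter probe. Its second probe read -0.74 and 0.03, a difference of 0.77. Each sex was measured on 1 array with its own dye orientation, and the difference was therefore not tested. Less the pan-epithelial median of each array, Krt7 was at -0.43 (female) and -0.50 (male) and Krt8 at -0.33 and -0.03.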

How the results depend on the processing

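Limma called Krt20 in 6 of 7 alternatives. With the deposited table its log2 ratio was -3.25 with an adjusted p of 0.533, and limma called 0 of the 6 keratins and 0 of all genes, where 2 and 2101 had an unadjusted p under 0.05. With a normexp offset of 0, limma called 4 of the 6 and 571 genes in all, against 169: Krt18 (-0.80, adjusted p of 0.0225), Krt19 (1.00, 0.00700) and Krt23 (1.00, 0.00432) joined Krt20. Without a filter on dim probes it called 94 genes. Less the pan-epithelial median, added after the data were seen, the log2 ratio was -3.39 for Krt20, 0.69 for Krt23 and -0.18 for Krt8, which changed sign. On single arrays the fold-rule count was 444 to 1253 genes, against 258 on both. The single-array log2 ratio of Krt7 was -0.38 to 0.05 and that of Krt8 -0.28 to 0.52, and these changed sign. The cause of these shifts was not tested. Each log2 ratio is itself the difference within a pair of pools, so the fits reported are paired by construction and have no unpaired counterpart.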
